A study of Arabidopsis thaliana with 3 samples.

Results

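Cytochrome P450 enzymes and glutathione transferases were followed in the stem base of Arabidopsis thaliana plants that lack secondary wall regulators. The members were the spots with 1 listed gene whose symbol began with CYP, a number and a letter, or with GST, a class letter and a number. This rule, which used names and no measured value, found 30 of the 9253 genes measured, 17 P450 genes and 13 GST genes, each with 1 spot. It was set with earlier results of these data known. The gene table names 236 P450 genes and 47 GST genes in this way, so most of both families was not analysed here. The annotation of the arrays lists CYP71B genes above all. They made up 14 of the 17 P450 members, beside CYP78A9, CYP79A2 and CYP84A4. Of the GST members, 10 were of the tau class (GSTU), 2 of the phi class (GSTF) and 1 of the lambda class (GSTL). CYP718 (AT2G42850), a P450 gene whose symbol has no subfamily letter, stayed outside the rule. Its log2 ratio averaged -0.013 ± 0.066 (SD over the 3 lines). CYP71 (AT3G44600) is a cyclophilin gene and was not counted.

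Each of 3 two-colour arrays compared nst1-1 nst3-1 plants, which carry T-DNA insertions in the genes NST1 and NST3, with wild type. The mutant samples are numbered 1, 2 and 3 in the labels and are called lines here. They carry the same allele names, and whether the wild-type RNA was 1 extract or several is not given in the sources used here. RNA came from the lowest 4 cm of inflorescence stems 12 to 17 cm tall, from untreated plants grown with 8 h of light and 16 h of dark. Plant age and the number of plants per sample are not given in the sources used here. NST1 and NST3 encode NAC transcription factors that switch on secondary wall formation in fibres, and the labels describe a mutant without secondary xylem in stem and hypocotyl.

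P450 enzymes are haem proteins, most of them anchored in the endoplasmic reticulum, that insert oxygen into small molecules. In plants they act in lignin, hormone, cuticle and defence metabolism, and the CYP71B subfamily belongs to a large plant clade whose members often sit side by side in the genome. Glutathione transferases join glutathione to reactive or foreign molecules or carry them as ligands. The tau and phi classes are the large plant classes known for herbicide and stress responses, while lambda enzymes act as thiol transferases.

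All values are log2 ratios of mutant over wild type, so a negative value means a lower transcript level in the mutant. The direction assumes that the deposited values are Cy5 over Cy3 and uses the dyes named in the labels, and all fold sizes rest on reading them as log10. If the ratios were Cy3 over Cy5, every direction would be turned. The main test was limma on the 3 ratios against 0, with Benjamini-Hochberg adjustment over all 9253 genes and a threshold of 0.05. The number of arrays limits the precision. An exact sign permutation of 3 arrays cannot give a two-sided p below 0.25, so no gene was tested that way. The targeted genes NST1 and NST3 had no listed probe and were not analysed here. Of the listed fibre and xylem genes, IRX15, IRX15-L and HCT were measured and all fell, with mean log2 ratios of -2.14, -1.43 and -2.40 and limma adjusted p-values of 0.0126, 0.0126 and 0.00917. Of 3 green cortex genes, LHCB4.3 fell (-0.75, limma adjusted p = 0.0483). LHCB4.1 and LHCB4.2 also had lower means, of -0.86 and -0.63, but were not called (limma adjusted p = 0.0940 and 0.239). The phloem, cambium and epidermis genes measured, 1 each, were not called. Since the files give ratios and no levels, the tissue itself could not be checked against marker levels. The arrays of lines 2 and 3 were more alike than either was to that of line 1, with a Pearson correlation across all genes of 0.784 between lines 2 and 3. Line 1 reached 0.488 with line 2 and 0.477 with line 3. Genes are not independent replicates.

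Few members of either family differed between mutant and wild type by the same amount in every line. GSTU18 was the 1 member that passed the test, lower in the mutant. CYP78A9 and CYP84A4 had ratios of about the same size and missed the threshold. The other members were not called, and most of them were close to wild type or varied between the lines.

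GSTU18 (AT1G10360), a tau-class transferase gene, measured -0.92, -1.40 and -0.89 in lines 1, 2 and 3. It was lower than wild type on every array, with line 2 the lowest. Its mean was -1.07 ± 0.29 (SD, n = 3 lines), or 2.1-fold lower, with a limma adjusted p of 0.0473 and a 95% interval of -1.45 to -0.69. The call was narrow. The limma adjusted p also passed with arrays scaled to equal spread (0.0410), centred arrays (0.0428) and a robust variance prior (0.0489). GSTU18 passed too with values of exactly 0 left out (0.0382), with each spot on its own (0.0478) and without line 1 (0.0418). Fits with scaled arrays (519 genes called), centred arrays (408), zeros left out (464) or line 1 left out (1157) called more than the main test (314). GSTU18 did not pass when all spots were fitted together (0.0850). A dye term gave 0.154, and leaving out line 2 or line 3 gave 0.280 and 0.179, fits in which no gene passed. The mean stayed between -1.16 and -0.90 in these fits. In whole stem tissue, fewer cells of a type and less RNA per cell cannot be told apart.

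Of the 13 GST genes, 1 fell, none rose and 12 were not called, and of the 17 P450 genes none was called. Over all genes, 3.39% were called, 2.6% as lower and 0.789% as higher. A single call among 30 members is a share of 3.33%, near that background. At an unadjusted limma p under 0.05 there were 2 P450 genes, both lower, and 3 GST genes, 2 lower and 1 higher. Over all genes this share was 25.8%, with 11.9% lower and 13.9% higher. The medians of the member means were -0.12 for the P450 genes and 0.028 for the GST genes, against 0.013 over all genes.

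CYP78A9 (AT3G61880) belongs to a P450 subfamily that promotes organ growth and is itself known for its effect on fruit and seed size. It measured -1.51, -1.29 and -0.78 in lines 1, 2 and 3, lower than wild type on every array and nearest to it in line 3. Its mean was -1.19 ± 0.37 (SD, n = 3 lines), or 2.29-fold lower, the lowest of all members, with a limma adjusted p of 0.0511. It passed with arrays scaled to equal spread (0.0325), with centred arrays (0.0468), with values of exactly 0 left out (0.0422) and without line 1 (0.0464). All of these fits called more genes in all than the main test. CYP78A9 did not pass with all spots fitted together (0.0944) or with the robust variance prior (0.0527). The dye term gave 0.205, and leaving out line 2 or line 3 gave 0.288 and 0.115, fits in which no gene passed.

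CYP84A4 (AT5G04330) is a relative of the lignin enzyme ferulate 5-hydroxylase and acts in the synthesis of arabidopyrones, pyrones derived from phenylalanine. It measured -1.62, -0.78 and -1.10 in lines 1, 2 and 3. All arrays were below wild type, and line 1 was the lowest. The mean was -1.17 ± 0.42 (SD, n = 3 lines), or 2.25-fold lower, with a limma adjusted p of 0.0593. It passed with scaled arrays (0.0438), with zeros left out (0.0478) and without line 1 (0.0376), fits that called more genes in all than the main test. CYP84A4 did not pass with centred arrays (0.0535), the robust variance prior (0.0604) or all spots fitted together (0.108). The dye term gave 0.201, and leaving out line 2 or line 3 gave 0.280 and 0.226. CYP84A4 was the 1 gene measured of 6 on a list of lignin and phenylpropanoid P450 genes.

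CYP78A9, CYP84A4 and GSTU18 were the members at least 1.5-fold lower on every array, 3 of 30, a rule that 3.2% of all genes met. No member was 1.5-fold higher on every array, which 1.12% of all genes were. No member reached a 2-fold change in 1 direction on all arrays, which few genes did, 1.44% of all genes as lower and 0.173% as higher. Ratios had 1 sign on all arrays for 7 of 17 P450 genes and 6 of 13 GST genes, against 50.2% of all genes.

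**Figure D1:**
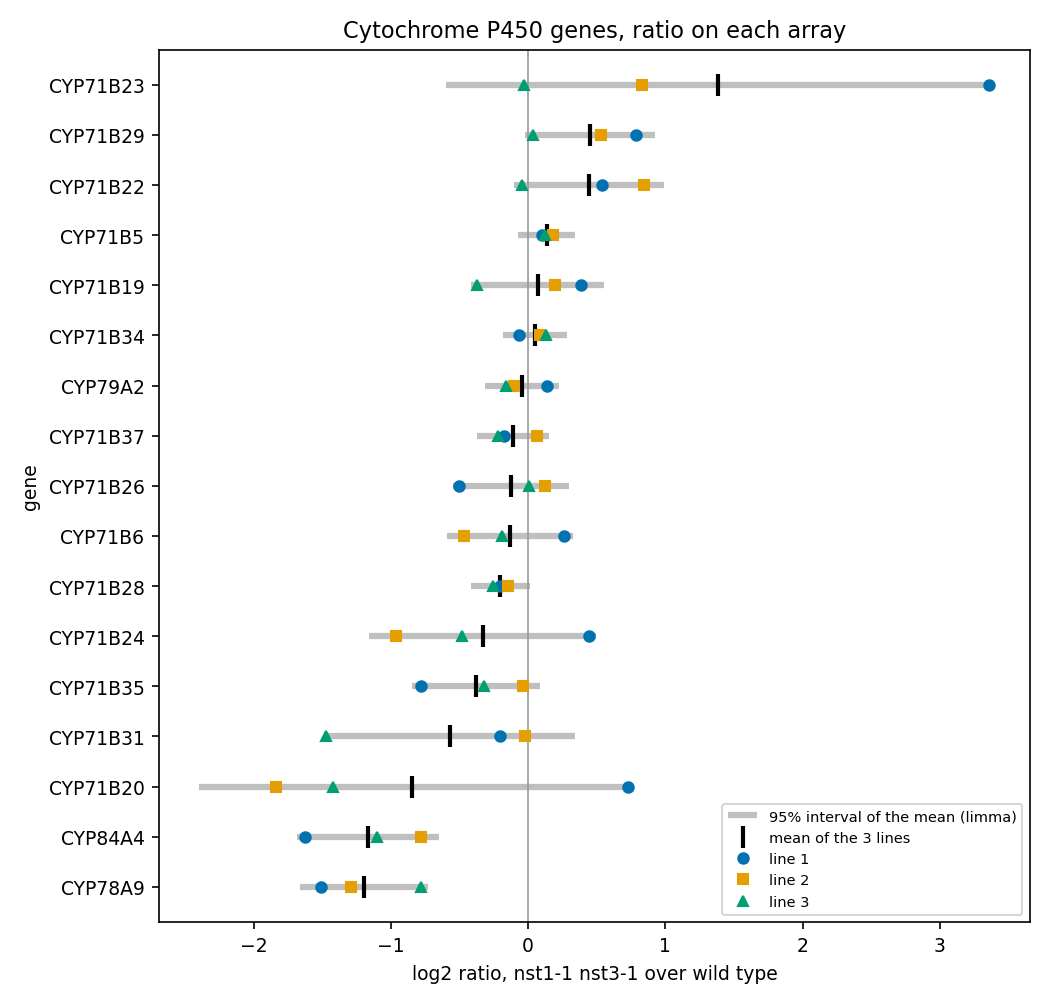
Log2 ratio (nst1-1 nst3-1 over wild type, x axis) of the 17 cytochrome P450 genes (y axis, ordered by mean), with 1 point per line, a black tick for the mean and a grey bar for limma's 95% interval of the mean. CYP78A9 and CYP84A4 lie below 0 in every line, while CYP71B23 reaches 3.36 in line 1 and -0.032 in line 3.

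The CYP71B genes gave no call, and 0 of 14 had an unadjusted limma p under 0.05. Over all genes these shares were 3.39% and 25.8%. In the subfamily 7 of 14 stayed under 1.5-fold on every array, which 69.5% of all genes did. Of the others, only CYP71B20 passed 1.5-fold in every line, and it did so in opposite directions. CYP71B23 (AT3G26210) measured 3.36, 0.83 and -0.032 in lines 1, 2 and 3. The ratio of line 1 was 10.2-fold, that of line 2 was 1.78-fold and line 3 was close to wild type. The mean of 1.38 ± 1.76 (SD, n = 3 lines; limma adjusted p = 0.315) was the highest of all members and was 0.40 without line 1. Only 0.162% of all genes had a larger SD between lines.

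CYP71B20 (AT3G26180) measured 0.73, -1.84 and -1.42 in lines 1, 2 and 3. Line 1 was above wild type and the other lines were well below it. With all arrays the mean was -0.84 ± 1.38 (SD, n = 3 lines), not called (limma adjusted p = 0.420). Without line 1 it was -1.63, with a limma adjusted p of 0.0262, in a fit that called 1157 genes in all. CYP71B24 (AT3G26230) had the same order of lines at a smaller size, with 0.45 in line 1, -0.96 in line 2 and -0.48 in line 3, and its mean was -0.33 ± 0.71 (SD, n = 3 lines; limma adjusted p = 0.549).

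CYP71B31 (AT3G53300), an enzyme of monoterpene oxidation in flowers, measured -0.21, -0.025 and -1.47 in lines 1, 2 and 3. Here line 3 alone was more than 2-fold lower, and the mean of -0.57 ± 0.79 (SD, n = 3 lines) was not called (limma adjusted p = 0.361). CYP71B35 had a mean of -0.38 ± 0.37, with -0.78 in line 1 and -0.040 in line 2. CYP71B22 measured 0.54, 0.84 and -0.047 in lines 1, 2 and 3, with a mean of 0.44 ± 0.45. CYP71B29 measured 0.78, 0.53 and 0.035, with a mean of 0.45 ± 0.38. Both were nearest to wild type in line 3. None of these was called.

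The remaining CYP71B genes were near wild type on average. Of the stable ones, CYP71B5 measured 0.10, 0.18 and 0.12 in lines 1, 2 and 3. Its mean was 0.13 ± 0.041 with an interval of -0.075 to 0.34. CYP71B28 had a mean of -0.20 ± 0.056 with an interval of -0.42 to 0.010 (SD, n = 3 lines each). CYP71B34 had a mean of 0.049 ± 0.10 and CYP71B37 one of -0.11 ± 0.15. CYP71B19 and CYP71B26 varied more, with means of 0.068 ± 0.40 and -0.12 ± 0.33. CYP71B6, a gene of indole metabolism in the camalexin branch, measured 0.26, -0.47 and -0.19 in lines 1, 2 and 3. Its mean was -0.13 ± 0.37.

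Outside CYP71B, CYP79A2 (AT5G05260), which makes the oxime precursor of benzylglucosinolate from phenylalanine, measured 0.14, -0.10 and -0.16 in lines 1, 2 and 3. Its ratios lay on both sides of 0, and the mean was -0.042 ± 0.16 (SD, n = 3 lines) with a 95% interval of -0.31 to 0.23. CYP79A2 and CYP71B6 were the 2 genes measured of 18 on the list of glucosinolate and camalexin P450 genes, and neither was called.

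**Figure D2:**
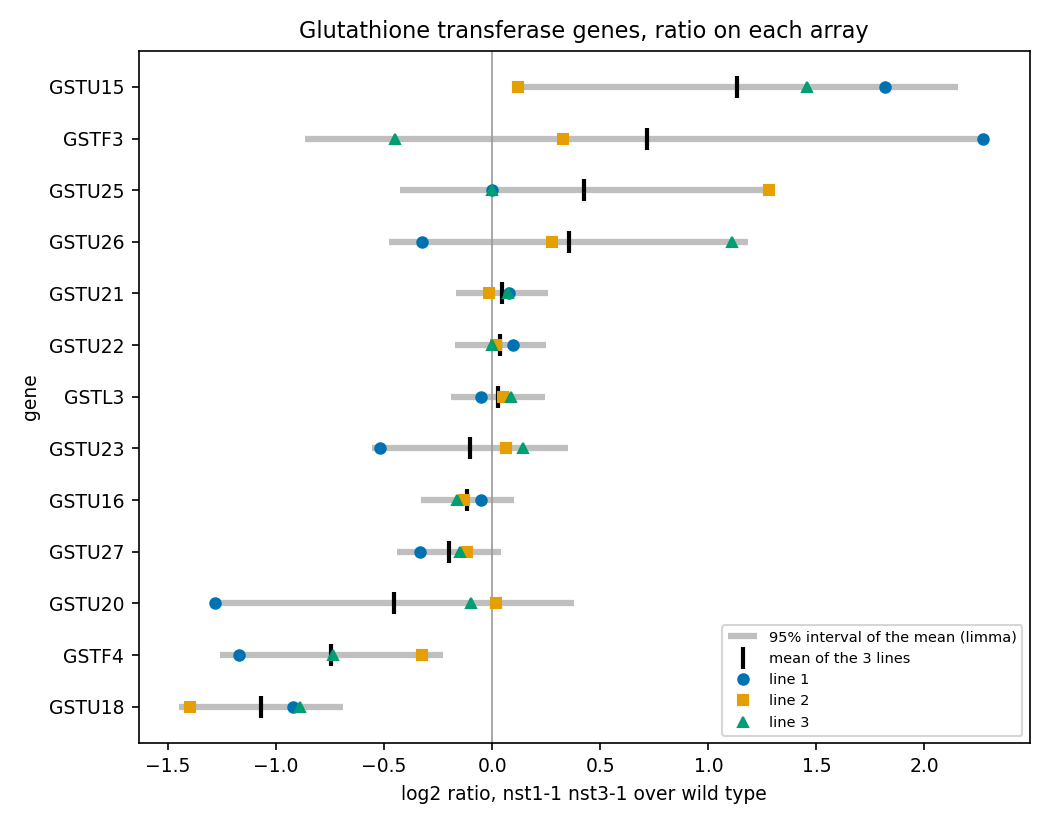
Log2 ratio (nst1-1 nst3-1 over wild type, x axis) of the 13 glutathione transferase genes (y axis, ordered by mean), with 1 point per line, a black tick for the mean and a grey bar for limma's 95% interval of the mean. GSTU18 lies between -1.40 and -0.89 in all lines, while GSTF3 spans -0.45 to 2.27.

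Among the GST genes the highest mean was that of GSTU15 (AT1G59670), a tau-class gene. It measured 1.82, 0.12 and 1.46 in lines 1, 2 and 3. Lines 1 and 3, whose mutant RNA carried Cy5, were more than 2-fold above wild type, and line 2, whose mutant RNA carried Cy3, was close to it. The mean was 1.13 ± 0.89 (SD, n = 3 lines), or 2.19-fold, and was not called (limma adjusted p = 0.167). With a dye term the ratio was 0.88. Line and dye cannot be told apart here, since only line 2 had the opposite dyes. GSTU16, which lies near GSTU15 on chromosome 1, had a mean of -0.11 ± 0.058.

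GSTF3 (AT2G02930) is a phi-class gene with a closely similar relative, GSTF2, and whether its probe also picks up GSTF2 was not tested. It measured 2.27, 0.33 and -0.45 in lines 1, 2 and 3, which is 4.83-fold above wild type in line 1 and near or below it in the others. The mean of 0.72 ± 1.40 (SD, n = 3 lines; limma adjusted p = 0.499) became -0.062 without line 1. The phloem sugar exporter gene SWEET11, the 1 measured of 5 phloem markers, had nearly the same profile, with 2.28, 0.16 and -0.50 in lines 1, 2 and 3. A ratio of line 1 more than 2-fold outside both other lines was found for 4.54% of all genes. Whether phloem content plays a part in the ratio of GSTF3 was not tested.

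GSTF4 (AT1G02950), the other phi-class gene, measured -1.17, -0.32 and -0.74 in lines 1, 2 and 3. It was below wild type on every array and lowest in line 1. The mean of -0.74 ± 0.42 (SD, n = 3 lines), or 1.67-fold lower, had a limma adjusted p of 0.110 and did not pass in any other fit, with 0.086 its lowest value, with scaled arrays.

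GSTU20 (AT1G78370), whose protein binds the jasmonate-conjugating enzyme FIN219/JAR1, measured -1.28, 0.016 and -0.096 in lines 1, 2 and 3. Line 1 alone was low, and the mean of -0.45 ± 0.72 (SD, n = 3 lines; limma adjusted p = 0.416) was -0.040 without it. GSTU25 (AT1G17180), a tau enzyme that acts on the explosive trinitrotoluene, was listed at exactly 0 in lines 1 and 3 and at 1.28 in line 2. A deposited value of exactly 0 can stand for an unmeasured spot, and GSTU25 was the only member with such a value. Its neighbour GSTU26 measured -0.32, 0.28 and 1.11, with line 3 the highest, and had a mean of 0.35 ± 0.72. Neither was called.

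The other GST genes stayed close to wild type. GSTU21 and GSTU22 had means of 0.046 ± 0.051 and 0.038 ± 0.051, with 95% intervals of -0.17 to 0.26 and -0.17 to 0.25. GSTL3 (AT5G02790), of the lambda class, had a mean of 0.028 ± 0.070 with an interval of -0.19 to 0.25 (SD, n = 3 lines each). GSTU27 measured -0.33, -0.12 and -0.15 in lines 1, 2 and 3, with a mean of -0.20 ± 0.12. GSTU23 was at -0.10 ± 0.36 with -0.52 in line 1.

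Both families varied more between the lines than most genes on the arrays. The median SD between lines was 0.37 for the P450 genes and 0.36 for the GST genes, against 0.18 over all genes. At least 1 array showed a change of 2-fold or more for 5 of 17 P450 genes and 7 of 13 GST genes, against 11.2% of all genes. The GST genes counted include GSTU25, with values of exactly 0 in lines 1 and 3. These counts are descriptions with no test, and spot brightness, which also sets the spread of a ratio, was not used here.

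**Figure D3:**
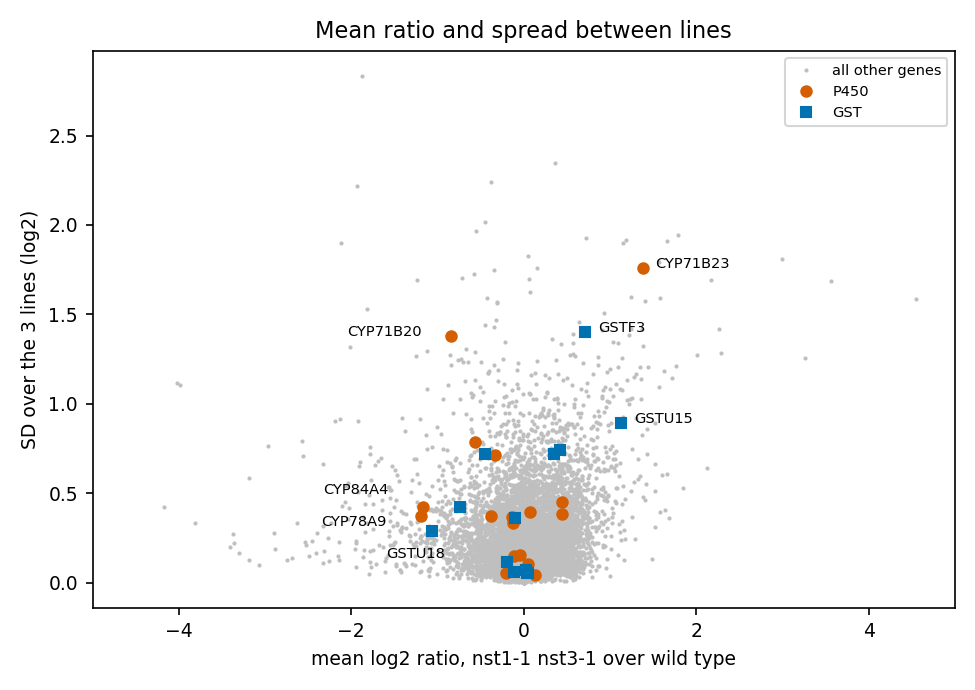
SD of the log2 ratio over the 3 lines (y axis) against the mean log2 ratio (nst1-1 nst3-1 over wild type, x axis) for P450 genes, GST genes and all other genes. CYP71B23, GSTF3 and CYP71B20 have SDs of 1.76, 1.40 and 1.38, while GSTU18 combines a mean of -1.07 with an SD of 0.29.

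Line 1 stood apart for some members. The ratio of line 1 lay more than 2-fold outside those of both other lines for 4 of the 30 members. CYP71B23, GSTF3 and CYP71B20 were higher in line 1, and GSTU20 was lower. Over all genes this held for 4.54%. Lines 1 and 2 differed by over 2-fold in 7 members, lines 1 and 3 in 6 and lines 2 and 3 in 3. The shares over all genes were 6.84%, 6.56% and 1.65%. Both member counts that involve line 2 include GSTU25, whose values in lines 1 and 3 were exactly 0. Across the 17 P450 genes lines 2 and 3 correlated with a Pearson coefficient of 0.68, and line 1 with line 2 at 0.43 and with line 3 at 0.30. Across the 13 GST genes the same pairs gave 0.42, 0.36 and 0.38. These few genes share arrays, and neighbouring genes may share probe signal.

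**Figure D4:**
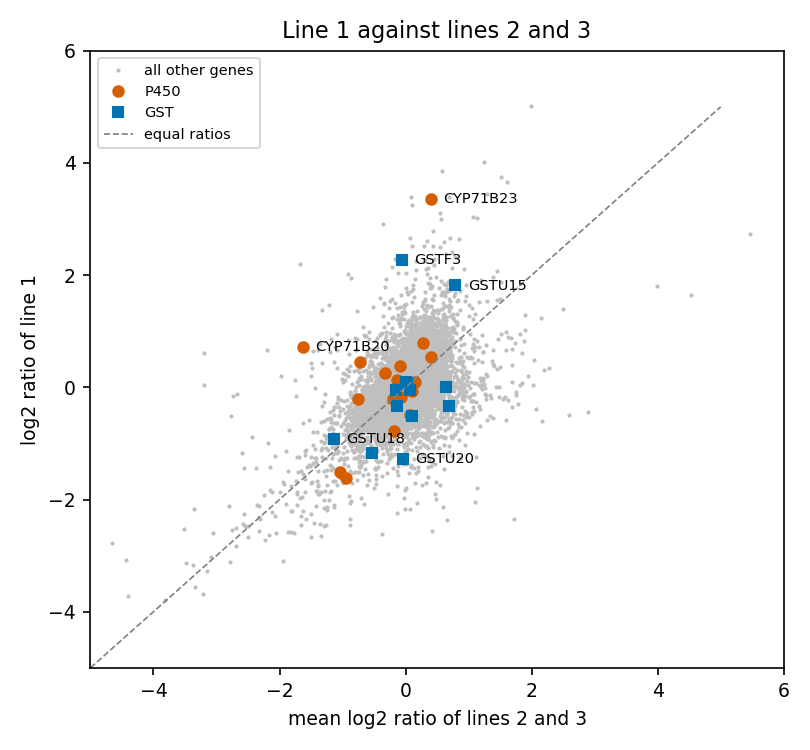
Log2 ratio of line 1 (y axis) against the mean log2 ratio of lines 2 and 3 (x axis), both nst1-1 nst3-1 over wild type, for P450 genes, GST genes and all other genes, with a dashed line of equal ratios. CYP71B23 (3.36 in line 1), GSTF3 (2.27) and CYP71B20 (0.73) lie above the dashed line and GSTU20 (-1.28) lies below it.

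Many members are neighbours in the genome, which the choice by symbol did not use. The order of genes was taken from the gene table of assembly TAIR10.1. On chromosome 3, 9 of the CYP71B members form a run from CYP71B19 to CYP71B37, with other genes between some of them. Some adjacent genes of this run had unlike ratios and others had like ones. CYP71B19 and CYP71B20, with no protein-coding gene between them, had means of 0.068 and -0.84. CYP71B22 and CYP71B23, also adjacent, had means of 0.44 and 1.38. In line 1 the ratio of CYP71B23 was 3.36 while CYP71B22 was at 0.54 and CYP71B24 at 0.45. In the other lines CYP71B22 and CYP71B23 were nearly equal, at 0.84 and 0.83 in line 2 and -0.047 and -0.032 in line 3. CYP71B26 and CYP71B34, adjacent as well, had means of -0.12 and 0.049. The later part of the run, CYP71B26, CYP71B34, CYP71B35 and CYP71B37, had means between -0.38 and 0.049.

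The tau-class genes GSTU23, GSTU22, GSTU21 and GSTU20 lie side by side on chromosome 1. GSTU21 and GSTU22 were near 0 in every line, while both ends of the row, GSTU23 and GSTU20, were low in line 1, at -0.52 and -1.28. On the same chromosome CYP71B28 and CYP71B29 are adjacent, with means of -0.20 and 0.45, and GSTU25 and GSTU26, also adjacent, had means of 0.43 and 0.35 that came from different lines. Close relatives can share probe signal, and probe sequences were not used here, so the separation of neighbouring copies is uncertain.

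**Figure D5:**
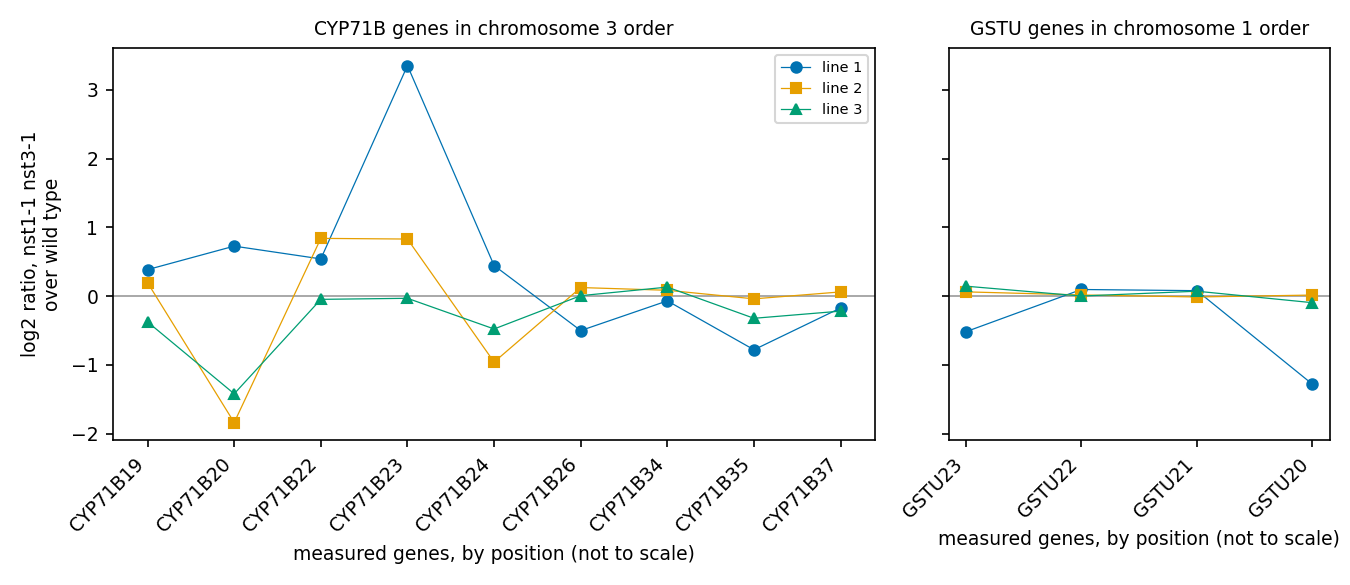
Log2 ratio (nst1-1 nst3-1 over wild type, y axis) of 9 CYP71B genes of chromosome 3 and 4 GSTU genes of chromosome 1 in their order along the chromosome (x axis, not to scale), with 1 marker and thin line per mutant line. Line 1 peaks at CYP71B23 (3.36), lines 2 and 3 dip at CYP71B20 (-1.84 and -1.42), and line 1 dips at GSTU20 (-1.28).

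Of the other genes that serve these enzymes, few were measured. Of 28 genes of glutathione synthesis, recycling and breakdown, 2 were measured, both glutathione reductases, and neither was called. GR1 (AT3G24170), the cytosolic enzyme, measured 0.38, 0.29 and 0.50 in lines 1, 2 and 3, above wild type on every array, with a mean of 0.39 ± 0.11 (SD, n = 3 lines; limma adjusted p = 0.0910). GR (AT3G54660), the enzyme of plastids and mitochondria, had a mean of 0.22 ± 0.17 (limma adjusted p = 0.272). CYP78A9 was the 1 measured of 6 genes of the CYP78A list, and CYP71B31 the 1 measured of 18 on the list of sterol, triterpene and carotenoid P450 genes, which also held some genes of monoterpene oxidation. Of 27 hormone P450 genes, 18 fatty acid, cutin and suberin P450 genes, 9 P450 redox partners and 15 vacuolar conjugate pumps, none was among the genes measured, and they were not analysed here.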

How the data were processed

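The authors' deposited values were 1 log ratio per spot and array for 22236 spots, read as log10 of Cy5 over Cy3 from a lower bound at exactly -2. The deposited log10 medians were 0 on every array, and the scanner, background correction and dye normalization are not stated in these sources. The array of line 2 was turned in sign by its dye labels and values were converted to log2. Spots were named through the platform annotation, updated to the TAIR10.1 gene table by Entrez identifier. Of them 9335 had 1 listed gene, 40 several and 12861 none. Spots of 1 gene were averaged, giving 9253 genes. limma (version 3.58.1, R 4.3.3) tested the 3 ratios against 0 with lmFit and eBayes, and intervals are its 95% intervals. Before that, limma was checked on simulated ratios with changes larger than any member mean, so the check does not cover smaller changes. Wild type has no separate estimate of its spread. P-values measure the spread between these 3 samples, which may be technical. Every member could be named; those called, at least 2-fold in 1 direction on every array, among the 4 highest or lowest means of a family, or on a list of roles were to be given line by line. Lists were matched by symbol or synonym, and LCR, a symbol shared with an F-box gene, was dropped. Members and lists were chosen with earlier results of these data known. Sequence features were not analysed here. Alternatives were scaling, centring, a dye term, a robust prior, zeros left out, single spots, all spots, each line left out, platform symbols and a threshold of 0.1.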

Additional observations from a re-analysis of the deposited data

How the results depend on the processing

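Each ratio already pairs mutant and wild type within 1 array. Beyond that, no paired analysis was possible because the labels give 1 group of arrays and no other group to block against. The 314 genes called over all genes became 519 with scaled arrays, 464 of 9204 with zeros left out and 408 with centred arrays. With all spots fitted the count was 69, and with a dye term 0 (1592 at an unadjusted limma p under 0.05). At a threshold of 0.1 it was 1178. Without line 1 it was 1157, and without line 2 or line 3 it was 0. P450 genes called, 0 in the main test, numbered 2 with scaled arrays, 2 with zeros left out, 2 at a threshold of 0.1, 1 with centred arrays and 0 to 3 without 1 line. GST genes called, 1 in the main test, numbered 0 with the dye term (4 at an unadjusted p), 0 with all spots fitted (2 at an unadjusted p) and 0 to 1 without 1 line. The dye term leaves 1 residual degree of freedom, and each left-out line leaves 2 arrays, whichever line it is. Why the counts differed between these fits was not tested. Without line 1, 2 or 3 in turn, means lay between -0.062 and 1.30 for GSTF3, -0.23 and 0.10 for GSTU23, -0.090 and 0.29 for CYP71B19, -0.25 and 0.065 for CYP71B26, -0.33 and 0.036 for CYP71B6, -0.025 and 0.69 for GSTU26, -0.0002 and 0.067 for GSTL3, and -0.13 and 0.016 for CYP79A2, each turning sign once. The mean of no other member turned sign in the settings run. GSTU25 was at exactly 0 without line 2 and could not be fitted with zeros left out. The P450 median, -0.12 in the main test, was -0.067 with the dye term and between -0.13 and -0.017 without 1 line, nearest to 0 without line 2. The GST median, 0.028 in the main test, turned sign with zeros left out (-0.038) and without line 3 (-0.025). Signal over background was not judged, so dim spots were not identified.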
